A study of Homo sapiens with 101 samples.

Results

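The oxidative phosphorylation subunit genes were taken as the protein-coding genes whose platform symbol begins with NDUFA, NDUFB, NDUFC, NDUFS, NDUFV, UQCR, COX4, COX5, COX6, COX7, COX8 or ATP5. Genes with the symbol SDHA, SDHB, SDHC, SDHD or CYC1 were taken too, together with ND6, the mitochondrially encoded MT-ND6. Assembly factors of the NDUFAF series and pseudogenes were left out. The rule found 79 genes among the 19775 genes tested, measured by 153 probe sets, of which 1 per gene was used, the one with the highest mean over all arrays. They comprise 34 genes of complex I, 3 of complex II, 7 of complex III, 17 of complex IV and 18 of complex V. Complex V here includes ATP5IF1, taken by its symbol, which encodes the inhibitor of ATP synthase hydrolysis rather than a subunit. SDHB, which the rule names, was not among the genes found, and other subunits were not analysed here. Of the 79 genes, 6 lay below the 40th percentile of mean level over all genes tested: COX8C, COX7B2, COX7A1, COX6A2, COX6B2 and ATP5MF.

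Oxidative phosphorylation is the last stage of respiration. Complexes I and II pass electrons from NADH and succinate to ubiquinone, complex III passes them on to cytochrome c, and complex IV reduces oxygen to water. Complexes I, III and IV pump protons across the inner mitochondrial membrane, and complex V, the ATP synthase, uses that gradient to make ATP. Most subunits are encoded in the nucleus and imported, while a small core set, ND6 among them, is encoded by mitochondrial DNA; ND6 is the one protein-coding gene transcribed from the light strand of that genome. Colorectal cancer cells draw on both glycolysis and respiration, and RAS signalling is known to influence the balance between them.

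The arrays came from SW480 and SW620, 2 human colorectal cancer cell lines established from the same case, the former from the colon tumour itself and the latter from a metastasis in a lymph node. Cells of each line were transduced with an empty vector, with a non-target hairpin, or with a short hairpin RNA against 1 of 6 genes (HRAS, NGFR, CDK5, MAPK3, MAP2K1 and MAP2K2), or were not transduced. That made 9 treatments in each line and 18 groups of 6 arrays, except 5 for CDK5 knockdown in SW620 and 3 for each non-transduced line. HRAS, MAP2K1, MAP2K2 and MAPK3 encode the GTPase and kinases of the RAS to ERK cascade, CDK5 encodes a cyclin-dependent kinase and NGFR the p75 neurotrophin receptor. Hairpin codes differed between replicates for HRAS only (B3 in replicate 1, A1 in replicates 3 to 6, none given for replicate 2), so each of the other knockdowns rests on 1 code. The arrays fall into 4 label series: replicate 1, replicate 2, replicates 3 to 6, and replicate 7, which holds 2 non-transduced arrays. The labels call the arrays biological replicates but do not say whether replicates 3 to 6 came from separate cultures, so the p-values measure the spread between these arrays, which may in part be technical. Sample names of replicates 3 and 4 carry an ending with the letter A and those of replicates 5 and 6 the letter B, whose meaning was not given. The main fit takes these arrays as separate. Counts with replicates averaged in pairs are lower and are given in the last section.

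All levels are deposited log2 intensities, and a change is a difference on that scale between a knockdown and the 12 vector control arrays (empty vector and non-target hairpin together) of the same line, given with its standard error. Adjusted p-values come from limma with Benjamini-Hochberg adjustment over 19775 genes, and a gene rose or fell where that value was below 0.05. Array medians lay between 5.05 and 5.28. In each line replicates 1 and 2 have 2 vector control arrays each, and replicates 3 to 6 have 8 together. Where an array of replicate 1 or 2 is said to lie beyond every control of its series, that means 2 control values. The targeted transcript was lower in every knockdown over both lines, by 0.45 for MAPK3 to 1.98 for NGFR; NGFR in SW620 did not pass (-0.52, adjusted p = 0.136). On 3 arrays the difference between 3′ and 5′ GAPDH probe sets, a measure of RNA degradation, exceeded 2: MAP2K1 replicate 2 (6.04), NGFR replicate 1 (3.82) and MAPK3 replicate 2 (2.95), all in SW620, against 0.05 to 1.47 on the others. On 3 arrays labelled SW480 (replicate 1 of MAP2K2, MAPK3 and MAP2K1) a line index, the level of genes higher in SW620 less that of genes higher in SW480, stood apart from the other SW480 arrays toward SW620, at 1.74, 0.27 and -0.98, against -4.59 to -2.80 on the others and 2.71 to 4.73 in SW620. Of 7 epithelial markers, 6 in SW480 and 5 in SW620 had a mean level above the median of mean levels over all genes tested. None of 3 leukocyte markers did in either line, and endothelial and fibroblast markers did in 0 of 3 and 1 of 6 in SW480 and in 1 of 3 and 2 of 6 in SW620.

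Across both lines, HRAS knockdown gave the largest count of lower subunit genes among the 6 knockdowns, and ND6 rose with each knockdown as an average over the lines. Within SW480 the ND6 rise passed with MAP2K2 knockdown alone, and the NGFR change there was negative. The MAP2K1 rise of ND6 over both lines passed under 5 of 19 other settings. With HRAS knockdown 24 of the 79 genes fell and 1 rose, while 20.6% of all genes tested fell and 15.4% rose. With CDK5 knockdown 9 rose and 3 fell (all genes, 8.71% and 10.7%), and with MAP2K1 knockdown 6 rose and 3 fell (7.4% and 7.82%). MAP2K2 knockdown gave 8 rises and 3 falls (7.99% and 11.2%), MAPK3 knockdown 9 and 5 (11.6% and 14%), and NGFR knockdown 10 and 8 (14.1% and 14.6%). The median change of the 79 genes was -0.10 with HRAS knockdown and between 0.01 and 0.08 with the others, beside all-gene medians between -0.01 and 0.01. The 6 knockdowns share the same vector control arrays, so these counts are not independent of each other. On bulk arrays less transcript per cell and fewer cells carrying it cannot be told apart.

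**Figure D1:**
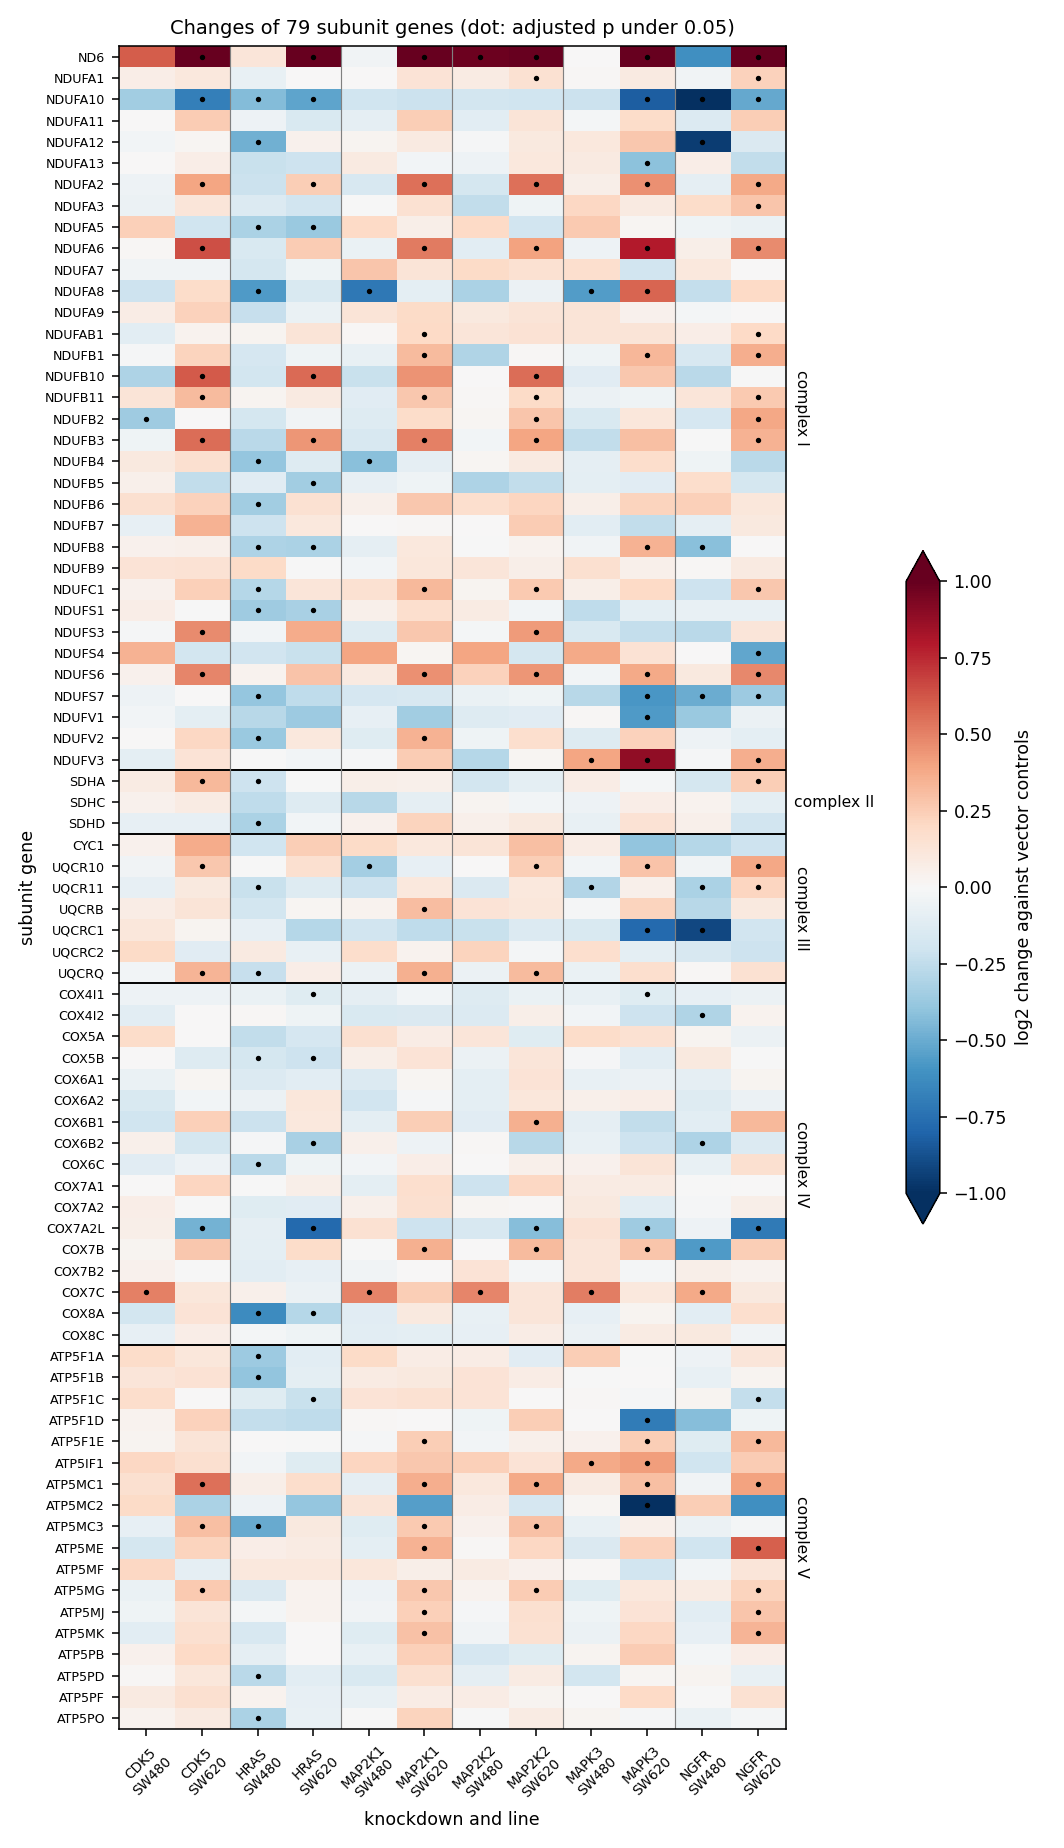
Heat map of the log2 change against vector controls for the 79 subunit genes (vertical axis, by complex) in each knockdown and line (horizontal axis), with a dot where the adjusted p was under 0.05. The SW480 HRAS column holds 23 dots, all in falls, the ND6 row is raised in all 6 SW620 columns, and COX7A2L has dots for falls in 5 of the 6 SW620 columns.

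The HRAS falls covered every complex except complex II, whose 3 genes had a median change of -0.17 but no call over both lines. In complex I 11 of 34 genes fell, in complex III 1 of 7, in complex IV 6 of 17 and in complex V 6 of 18, with medians of -0.10, -0.08, -0.09 and -0.08. In SW480 alone 23 genes fell and 0 rose by the limma test, with 1 higher at an unadjusted p under 0.05 (all genes, 16.2% and 9.97%), with a median of -0.16 beside 0.02 for all genes. In SW620 alone 11 fell and 4 rose (16.8% and 14.2%), with a median of -0.04. The count in SW480 moved with a few arrays: replicates 3 and 4 had the highest GAPDH differences of that group (1.39 and 1.47), and without them 5 genes fell in SW480 and 17 in both lines. All-gene shares for those 2 counts are not given here. On replicates 3 and 4, 61 and 65 of the 79 genes were lower than the controls of their series, with member medians of -0.28 and -0.30. On replicates 1, 5 and 6, with GAPDH differences of 0.14, 0.41 and 0.32, 56, 65 and 55 were lower. Their member medians were -0.29, -0.13 and -0.12. On replicate 2 (0.25) 30 were lower. All-gene medians on these 6 arrays lay between -0.03 and 0.04. The part of the GAPDH differences in the result was not tested. Replicate 2 went the other way in both lines, with array medians of 0.06 in SW480 and 0.26 in SW620, and without replicate 2 the count over both lines was 47 lower and 1 higher, when 41.1% of all genes were called in either direction. Without all 6 arrays that stood apart 35 fell and 5 rose, when 45.1% of all genes were called.

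COX8A, the ubiquitous form of the small subunit VIII of cytochrome c oxidase, was among the genes that fell in both lines. Its level in the SW480 vector controls was 11.92 at the lowest, 12.02 at the median and 12.17 at the highest, and with HRAS knockdown 10.96, 11.39 and 11.89. All 6 SW480 knockdown arrays lay below every control of their own series. In SW620 the controls ran from 11.66 over 11.91 to 11.97 and the knockdown arrays from 11.38 over 11.56 to 11.94, with 5 of 6 below and replicate 2 above every control of its series. COX8A fell by 0.63 ± 0.07 in SW480 (adjusted p = 2.58e-11) and by 0.28 in SW620 (adjusted p = 0.00117), and the fall was smaller in SW620 by 0.35 ± 0.10 (adjusted p = 0.00982). Over both lines the change was -0.46 ± 0.05 (adjusted p = 4.09e-12), lower on 11 of 12 arrays. No other knockdown passed for COX8A within a line.

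NDUFA10, an accessory subunit of the membrane arm of complex I, had the largest HRAS fall among the 79 genes. It also passed the threshold for a fall over both lines with 3 of the other knockdowns. Its level in the vector controls ran from 8.95 over 9.71 to 9.82 in SW480 and from 9.15 over 9.83 to 10.02 in SW620. With HRAS knockdown it ran from 8.87 over 9.10 to 9.43 in SW480 and from 8.63 over 9.42 to 9.49 in SW620. All 12 knockdown arrays lay below every control of their line and series, and the change was -0.48 ± 0.10 (adjusted p = 6.47e-05). NGFR knockdown gave the larger change, -0.83 ± 0.10 (adjusted p = 3.4e-10), also with 12 of 12 arrays below their controls. In SW480 the NGFR arrays ran from 7.87 over 8.60 to 8.68, a fall of 1.14 ± 0.14 (adjusted p = 5.55e-10), and in SW620 from 7.72 over 9.68 to 9.78, a fall of 0.51 (adjusted p = 0.00481). The SW620 array at 7.72 was replicate 1, the array with a GAPDH difference of 3.82. CDK5 and MAPK3 knockdown gave -0.51 (adjusted p = 0.000114) and -0.52 (adjusted p = 3.2e-05) over both lines, while the MAP2K1 and MAP2K2 changes of -0.21 and -0.19 did not pass. NDUFA10 lay below every control of its line and series on 11 of 11 CDK5 and 11 of 12 MAPK3 arrays. The same held on 10 of 12 MAP2K1 and 11 of 12 MAP2K2 arrays. NDUFA10 has 5 probe sets and the others are much dimmer, with means of 3.48 to 6.03 against 9.30: with HRAS knockdown their changes over both lines were 0.04 to 0.15 and none passed, and the mean of all 5 gave -0.03 (adjusted p = 0.41). One of them, with a mean of 4.99, was called in the opposite direction for NDUFA10 in SW620, with rises of 0.28 for HRAS, 0.42 for CDK5, 0.46 for MAPK3, 0.60 for MAP2K1 and 0.29 for NGFR, and over both lines for MAPK3 (0.29) and MAP2K1 (0.27). In SW480 the same probe set fell with NGFR knockdown (-0.31). Another, with a mean of 4.07, fell with MAPK3 (-0.45) and NGFR knockdown (-0.24) over both lines.

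COX7A2L, also known as SCAFI, is a COX7A-related protein known to join complexes III and IV into supercomplexes. It fell in SW620 with 5 of the 6 knockdowns and passed with none in SW480. The SW620 vector controls ran from 10.59 over 10.88 to 10.95. HRAS knockdown arrays ran from 9.86 over 10.11 to 10.15, a change of -0.78 ± 0.09 (adjusted p = 2.62e-11), and NGFR arrays from 9.95 over 10.18 to 10.33, a change of -0.71 (adjusted p = 2.27e-09). Every array of both knockdowns lay below every control of its series. CDK5 arrays ran from 9.95 over 10.42 to 10.50 (-0.47 ± 0.10, adjusted p = 8.71e-05, 5 of 5 below) and MAP2K2 arrays from 10.01 over 10.42 to 10.70 (-0.43, adjusted p = 0.000176, 6 of 6 below). The MAPK3 arrays were split, with 4 below and 2 above, from 10.18 over 10.30 to 11.27 (-0.35, adjusted p = 0.00136), and MAP2K1 did not pass (-0.21, adjusted p = 0.0981). In SW480 the controls ran from 10.46 over 10.76 to 10.87 and the 6 changes from -0.16 to 0.15. The difference between the lines passed for HRAS (-0.69), NGFR (-0.65), CDK5 (-0.53) and MAPK3 (-0.50), but not for MAP2K1 (-0.36, adjusted p = 0.0509) or MAP2K2 (-0.27, adjusted p = 0.174). Non-transduced SW620 arrays had COX7A2L at 10.002, 10.490 and 10.501, below the lowest vector control array. In the limma fit the controls of both lines stood 0.34 ± 0.10 above the non-transduced arrays without passing (adjusted p = 0.0506). That fit rests on the non-transduced arrays of replicates 1 and 2, since replicate 7 has a series term of its own. COX7A2L has 1 probe set, so no second measurement was available here.

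The remaining HRAS falls, listed after their values were seen, were spread over the parts of each complex. In complex I they included NDUFV1 (-0.32), which binds NADH, and the iron-sulphur subunits NDUFS1 (-0.34) and NDUFS7 (-0.32). NDUFA8 fell by 0.36 ± 0.09 (adjusted p = 0.000879) and NDUFA5 by 0.34 ± 0.09 (adjusted p = 0.000803). The other complex I falls were the accessory subunits NDUFB8 (-0.31), NDUFB4 (-0.26), NDUFB5 (-0.23), NDUFA12 (-0.22) and NDUFA3 (-0.17). In complex V the catalytic head was represented by ATP5F1A (-0.24), ATP5F1B (-0.25) and ATP5F1C (-0.17), the stalk by ATP5PO and ATP5PD (-0.19 each), and the proton-carrying ring by ATP5MC3 (-0.20). Complex IV gave COX5A (-0.20), COX5B (-0.19), COX6A1 (-0.12) and COX4I1 (-0.09), and complex III gave UQCR11 (-0.18). For ATP5F1C, COX4I1, NDUFS7 and UQCR11 a dimmer probe set was called in the opposite direction.

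Upstream sequence is shown for NDUFA10, COX8A and NDUFA8, the 3 genes with the largest HRAS falls whose window held a match to a searched motif. COX7A2L, with a change of -0.43 over both lines, fell further than NDUFA8, but its window held no match and is not shown. That each window shown holds a match therefore follows from the choice. Each run is the 250 bases before the RefSeq start of the gene, read 5′ to 3′ on the gene's strand in GRCh38.p14, with capitals marking matches to GGGCGG (the SP1 box) or CCGGAAG (the ETS core bound by GABP) on either strand.
NDUFA10, chr2:240025343-240025592, minus strand: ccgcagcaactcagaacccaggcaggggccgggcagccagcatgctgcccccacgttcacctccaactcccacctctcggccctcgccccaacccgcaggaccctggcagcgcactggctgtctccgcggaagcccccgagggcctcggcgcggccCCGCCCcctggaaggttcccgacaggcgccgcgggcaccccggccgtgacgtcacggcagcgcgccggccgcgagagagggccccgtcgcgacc
COX8A, chr11:63974370-63974619, plus strand: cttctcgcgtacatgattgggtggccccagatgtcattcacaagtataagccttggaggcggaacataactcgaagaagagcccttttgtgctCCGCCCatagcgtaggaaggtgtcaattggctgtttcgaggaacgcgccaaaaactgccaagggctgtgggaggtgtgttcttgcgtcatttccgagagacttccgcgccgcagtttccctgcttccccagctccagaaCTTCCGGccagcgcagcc
NDUFA8, chr9:122159780-122160029, minus strand: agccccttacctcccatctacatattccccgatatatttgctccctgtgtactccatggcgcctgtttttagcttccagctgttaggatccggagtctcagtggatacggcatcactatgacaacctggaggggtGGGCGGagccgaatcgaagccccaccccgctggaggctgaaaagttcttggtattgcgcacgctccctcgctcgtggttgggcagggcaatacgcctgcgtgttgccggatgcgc
The NDUFA10 window holds an SP1 box in reverse complement 94 bases before the start. The COX8A window holds the ETS core 18 bases and an SP1 box 157 bases before the start, both in reverse complement, and the NDUFA8 window holds an SP1 box 115 bases before the start.

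Promoter windows were found in the RefSeq table for 66 of the 79 genes, 21 of them among the 24 that fell with HRAS knockdown. The SP1 box occurred in 56.1% of the 66 windows, in 66.7% of the 21 and in 42.3% of all 27305 promoters, both strands searched. The ETS core occurred in 22.7%, 28.6% and 8.82%, and AAGATGGC, a core bound by YY1, in 1.52%, 0% and 1.37%. The palindrome CGCATGCG, the core bound by NRF1, a regulator of nuclear genes for respiratory subunits, occurred in 13.6% (9 windows), 19% (4 windows) and 1.86%. The 9 windows with that core are shown in 26 bases each, with the core in capitals, because it lies in genes that fell and in genes that did not pass; the genes were chosen by the match, after the changes were known.
ATP5F1C, chr10:7788147-7788172, plus strand: gagcttcggCGCATGCGcgctgaggc
COX6A1, chr12:120437885-120437910, plus strand: gagggcacaCGCATGCGcacgaagga
NDUFB4, chr3:120596169-120596194, plus strand: agcacttcgCGCATGCGcatatcacc
NDUFS7, chr19:1383824-1383849, plus strand: tccggtttcCGCATGCGctccgagcc
ATP5MC2, chr12:53676108-53676133, minus strand: cccgggtcaCGCATGCGctgagcctt
ATP5ME, chr4:674337-674362, minus strand: cgctgacggCGCATGCGtgcgcccag
ATP5PF, chr21:25735157-25735182, minus strand: ctcaaagagCGCATGCGtacagagca
NDUFS6, chr5:1801353-1801378, plus strand: gaagccgtgCGCATGCGttagcgcta
SDHD, chr11:112086755-112086780, plus strand: ctgtgtttgCGCATGCGcgacgggtg
The first 4 of these genes fell with HRAS knockdown over both lines, by 0.12 (COX6A1) to 0.32 (NDUFS7). The other 5 did not pass, with changes of -0.22 for ATP5MC2, 0.08 for ATP5ME, -0.02 for ATP5PF, 0.16 for NDUFS6 and -0.17 for SDHD. A match describes these letters in this window and does not show binding.

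ND6, the mitochondrially encoded subunit of the proton-pumping arm of complex I, was the member with the largest changes. In SW620 its vector control arrays ran from 5.77 over 7.96 to 8.67, and the level was higher with all 6 knockdowns. HRAS knockdown arrays ran from 7.77 over 9.91 to 10.30 (1.83 ± 0.27, adjusted p = 4.9e-08) and NGFR arrays from 7.42 over 10.22 to 10.39 (1.91, adjusted p = 4.07e-08). All 6 arrays of each lay above every control of their own series. MAPK3 arrays ran from 6.97 over 9.44 to 10.34 (1.36, adjusted p = 4.14e-05), with 5 of 6 above. CDK5 arrays ran from 8.41 over 9.14 to 9.23 (1.18 ± 0.29, adjusted p = 0.00115, 5 of 5 above), MAP2K1 arrays from 8.27 over 8.89 to 9.13 (1.12, adjusted p = 0.00129, 6 of 6) and MAP2K2 arrays from 8.08 over 8.81 to 9.69 (1.12, adjusted p = 0.000979, 6 of 6). Within replicates 3 to 6 of SW620 the ND6 differences from the control mean were 0.53 for MAP2K2, 0.70 for MAP2K1, 0.86 for CDK5, 1.51 for MAPK3, 1.79 for HRAS and 2.00 for NGFR. Without the SW620 arrays of high GAPDH difference the changes were 1.90 for NGFR, 1.23 for MAPK3 and 0.95 for MAP2K1. The non-transduced SW620 arrays, at 8.05, 8.90 and 9.13, lay within the span of the knockdowns. Among the vector controls of SW620, the empty vector arrays had a median of 8.62 and the non-target arrays one of 7.91.

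In SW480 the ND6 controls were higher, from 7.47 over 9.43 to 9.97, and 1 of the 6 knockdowns passed. MAP2K2 arrays ran from 8.47 over 10.40 to 11.30, a rise of 0.98 (adjusted p = 0.0168); without replicate 1, whose SW480 array stood apart by its line index, the value was 0.49 (adjusted p = 0.171), and it also did not pass without replicate 3, 4 or 6. HRAS arrays ran from 8.45 over 9.09 to 10.20 (0.12, adjusted p = 0.778), NGFR arrays from 8.46 over 8.52 to 8.87 (-0.61, adjusted p = 0.0891) and CDK5 arrays from 8.14 over 10.15 to 10.69 (0.61, adjusted p = 0.173). Over all series their ranges overlap that of the controls. The HRAS arrays differed from the control mean of their series by 0.55 and 0.53 on replicates 3 and 4, with name ending A. On replicates 5 and 6, with ending B, the HRAS differences were -0.61 and -0.51. Within a series, the NGFR arrays of replicates 3 to 6 were 1.04 to 1.19 below the control mean and those of replicates 1 and 2 above it, and the CDK5 arrays were higher on all 6, 5 of them above every control. The change was larger in SW620 by 2.53 for NGFR, 1.71 for HRAS, 1.36 for MAPK3 and 1.15 for MAP2K1 (adjusted p = 0.0346 for the last, not passing without replicate 2, 3, 4, 5 or 6, and for MAPK3 not without replicate 4), whereas those for CDK5 (0.57, adjusted p = 0.345) and MAP2K2 (0.14, adjusted p = 0.864) did not pass. Over both lines ND6 rose with MAP2K2 (1.05), HRAS (0.98), CDK5 (0.89), MAPK3 (0.68), NGFR (0.65) and MAP2K1 (0.54, adjusted p = 0.0405); the MAP2K1 rise passed under 5 of 19 other settings, and not without replicate 2, 3, 4, 5 or 6.

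ND2 and ND4, mitochondrial complex I genes of the heavy strand that are no members by the rule, rose with no knockdown in SW620. With CDK5 knockdown in SW620 ND2 fell by 0.88 (adjusted p = 0.00148) and ND4 by 0.75 (adjusted p = 0.00097), and ND4 fell by 0.50 with MAP2K2 knockdown (adjusted p = 0.0234). No source of the difference between ND6 and these genes was tested.

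**Figure D2:**
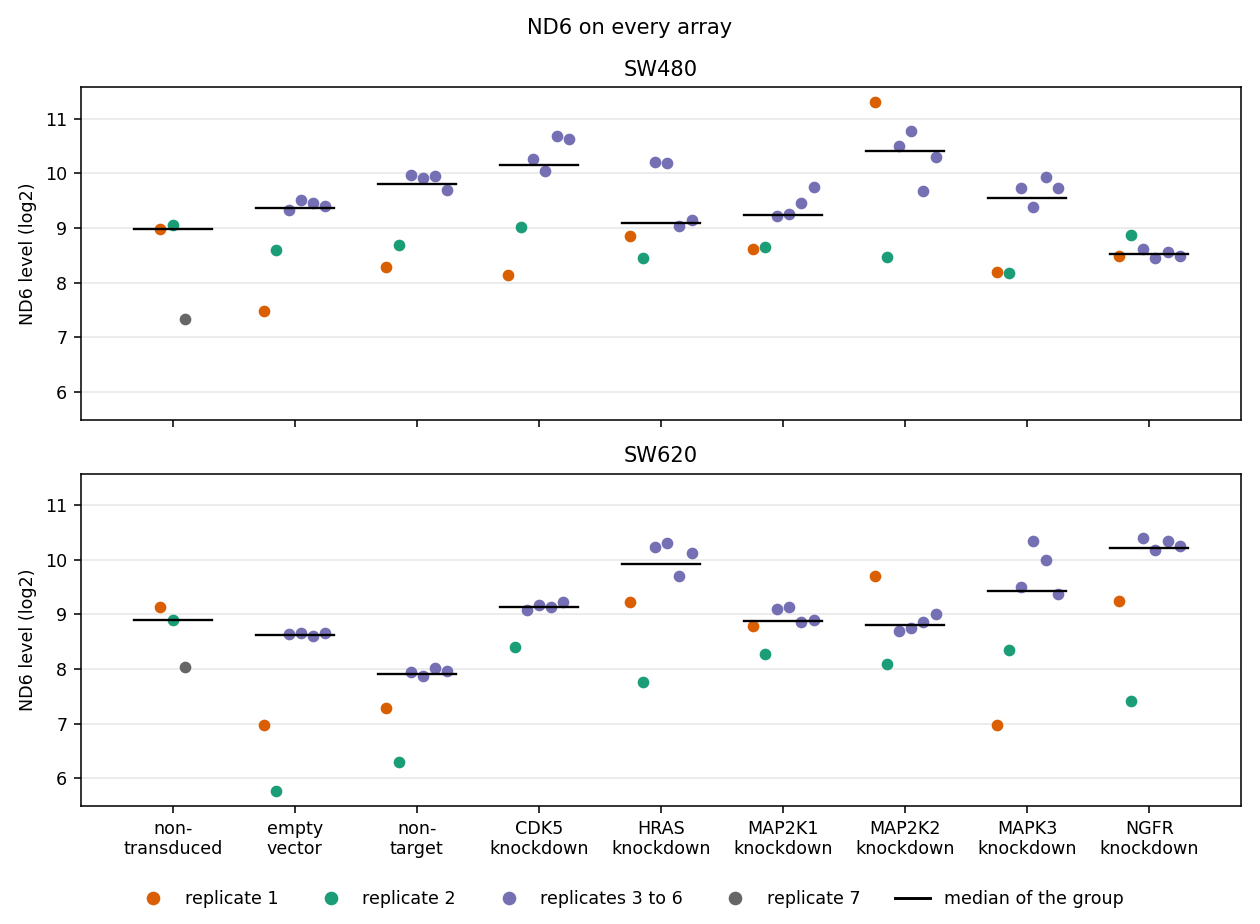
ND6 level (log2, vertical axis) on every array by treatment (horizontal axis), in SW480 and SW620, coloured by replicate series, with a line at the group median. In SW620 the vector controls sit between 5.77 and 8.67 and most knockdown arrays lie above the controls of their own colour, while in SW480 the knockdowns and controls overlap when all series are pooled.

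With every knockdown more members rose in SW620 than in SW480, and with each but NGFR a larger share of all genes rose there too. With MAPK3 knockdown the member rises were near the all-gene shares in both lines. The HRAS counts are given above. In SW480 the rises and falls were 1 and 1 for CDK5 (all genes, 4.15% and 3.9%), 1 and 3 for MAP2K1 (3.2% and 3.34%), 2 and 0 for MAP2K2 (2.07% and 3.09%; 9 lower at an unadjusted p under 0.05), 3 and 2 for MAPK3 (4.21% and 6.46%) and 1 and 9 for NGFR (13.1% and 10.9%). In SW620 they were 14 and 2 for CDK5 (10.6% and 13.4%), 20 and 0 for MAP2K1 (9.77% and 9.28%; 2 lower at an unadjusted p under 0.05), 18 and 1 for MAP2K2 (10.5% and 12.7%), 13 and 9 for MAPK3 (13.9% and 15.9%) and 22 and 5 for NGFR (12.9% and 13.4%). The member medians in SW620 were 0.13, 0.14, 0.10, 0.08 and 0.07 in that order, and the all-gene medians lay between -0.01 and 0.01. By complex, the SW620 rises with MAP2K1 knockdown were 10 of 34 in complex I, 2 of 7 in complex III, 1 of 17 in complex IV and 7 of 18 in complex V.

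The member medians in SW620 were highest on replicate 2. On that replicate the median member difference from its own controls was 0.71 with MAP2K1, 0.62 with MAPK3, 0.46 with MAP2K2, 0.42 with NGFR, 0.40 with CDK5 and 0.26 with HRAS knockdown. On replicates 3 to 6 the same medians were between -0.12 (HRAS) and 0.06 (MAP2K1). The MAP2K1 and MAPK3 arrays of replicate 2 are those with GAPDH differences of 6.04 and 2.95, but the CDK5, MAP2K2, HRAS and NGFR arrays of replicate 2 did not exceed 1.47. Without replicate 2 the SW620 counts of rises and falls were 16 and 3 for CDK5, 13 and 3 for MAP2K1, 18 and 8 for MAP2K2, 8 and 11 for MAPK3 and 22 and 14 for NGFR. Without all 6 arrays that stood apart the counts were 25 and 4 for CDK5, 20 and 4 for MAP2K1, 25 and 4 for MAP2K2, 11 and 10 for MAPK3 and 25 and 9 for NGFR. All-gene shares under these settings are not given here, so the counts do not show whether members moved apart from all genes. The part of replicate 2 in these medians was not tested further.

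**Figure D3:**
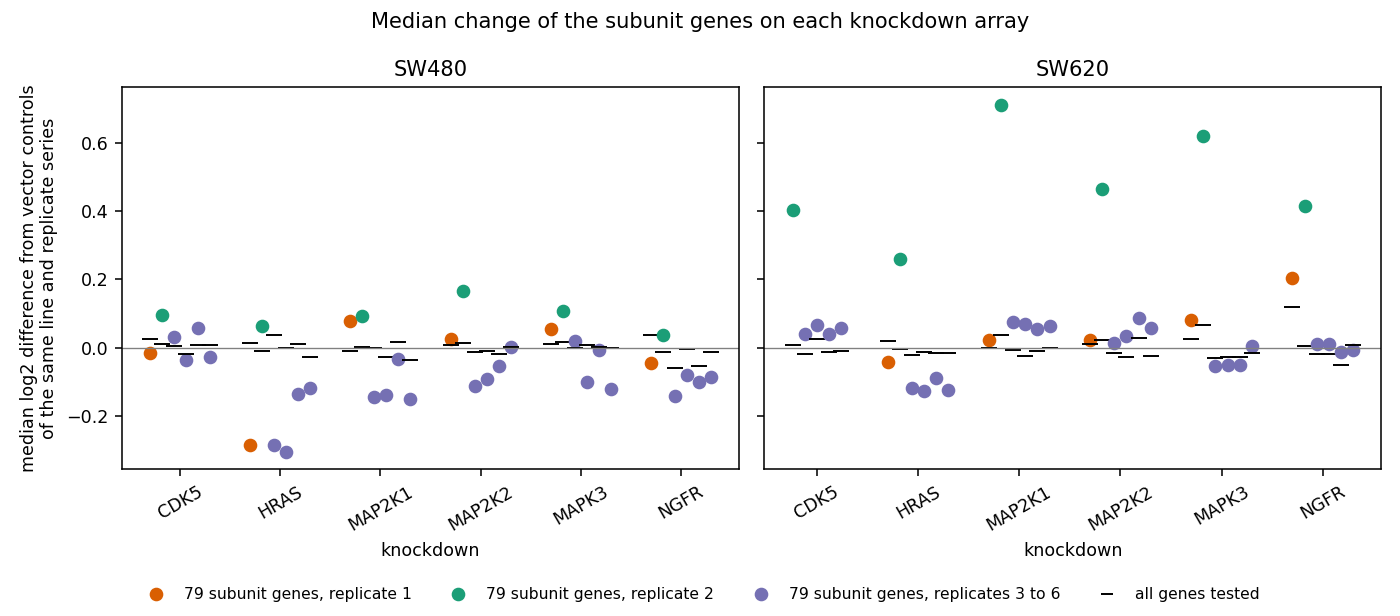
Median log2 difference (vertical axis) of the 79 subunit genes, as points coloured by replicate series, and of all genes tested, as black dashes, on each knockdown array against the vector controls of the same line and series. In SW620 the replicate 2 points lie between 0.26 and 0.71, above those of replicates 3 to 6, and in SW480 5 of the 6 HRAS points lie below 0.

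NDUFA2, an accessory subunit of complex I, rose in SW620 with all 6 knockdowns. Its SW620 controls ran from 9.29 over 10.33 to 10.58. MAP2K1 arrays ran from 9.75 over 10.90 to 10.99 (0.55, adjusted p = 1.86e-06) and MAP2K2 arrays from 10.17 over 10.87 to 11.03 (0.55, adjusted p = 9.91e-07). All 6 arrays of each lay above every control of their series. The rises were 0.46 with MAPK3, 0.39 with CDK5, 0.38 with NGFR and 0.24 with HRAS knockdown. A dimmer probe set of NDUFA2, with a mean of 5.08, fell with MAPK3 knockdown in SW620 (-0.22, adjusted p = 0.0348). The change exceeded that in SW480 by 0.71 for MAP2K1 and 0.73 for MAP2K2, calls that were lost with the mean of all 3 probe sets of the gene, where the values were 0.17 (adjusted p = 0.156) and 0.21 (adjusted p = 0.076).

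NDUFA6, another accessory subunit of complex I, ran from 8.97 over 10.62 to 10.70 in the SW620 controls and from 10.05 over 11.15 to 11.28 with CDK5 knockdown (0.64, 5 of 5 arrays above their controls). Its other SW620 rises were 0.79 with MAPK3, 0.52 with MAP2K1, 0.47 with NGFR and 0.41 with MAP2K2 knockdown. The larger CDK5 change in SW620, by 0.64, did not pass without replicate 3, 4, 5 or 6. NDUFS6, a zinc-binding subunit of complex I, rose in SW620 by 0.38 to 0.49 with the 5 knockdowns other than HRAS. ATP5MC1, one of 3 genes for the ring subunit c of ATP synthase, rose in SW620 by 0.55 ± 0.09 with CDK5 knockdown (adjusted p = 7.72e-07), and by 0.41 with NGFR, 0.38 with MAP2K2, 0.36 with MAP2K1 and 0.30 with MAPK3 knockdown. Its SW620 controls ran from 8.61 over 9.55 to 9.77 and the CDK5 arrays from 9.34 over 10.19 to 10.21, with 5 of 5 above every control of their series.

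NGFR knockdown gave the 3 lowest member changes of any knockdown in SW480, those of NDUFA10 (above), NDUFA12 and UQCRC1. NDUFA12, an accessory subunit of complex I, ran from 11.40 over 11.85 to 12.18 in the controls and from 10.47 over 11.04 to 11.13 with the knockdown. All 6 arrays lay below every control of their series, and the change was -0.95 ± 0.11 (adjusted p = 5.37e-11); SW620 did not pass (-0.14, adjusted p = 0.364), and the lines differed by 0.80 (adjusted p = 4.42e-05). UQCRC1, a core subunit of complex III, ran from 10.33 over 10.42 to 12.01 in the controls and from 9.42 over 9.50 to 11.14 with the knockdown. The ranges overlap because replicates 1 and 2 were brighter than replicates 3 to 6, but within a series all 6 arrays lay below every control (-0.91 ± 0.17, adjusted p = 1.76e-05). COX7B, a small subunit of complex IV, ran from 11.17 over 12.17 to 12.39 in the controls and from 10.76 over 11.65 to 11.71 with the knockdown, again with 6 of 6 below (-0.57 ± 0.10, adjusted p = 3.87e-06), and its change in SW620 was higher by 0.81 (adjusted p = 4.74e-06). The NGFR transcript itself was 3.43 lower in SW480 and did not pass in SW620, so the 2 lines were not compared at an equal depth of knockdown. The same holds for HRAS, 1.86 lower in SW480 and 0.74 lower in SW620, and for MAPK3, 0.32 and 0.59 lower.

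With MAPK3 knockdown NDUFV3 and ATP5IF1 rose in both lines. NDUFV3, a subunit of the NADH-binding module of complex I, ran from 9.53 over 10.12 to 10.24 in the SW480 controls and from 10.13 over 10.46 to 10.52 with the knockdown. In SW620 it ran from 7.86 over 8.79 to 8.87 in the controls and from 9.35 over 9.39 to 9.66 with the knockdown. All 12 arrays lay above every control of their line and series, and the change was 0.64 ± 0.08 over both lines (adjusted p = 4.63e-10). A second probe set of NDUFV3 gave -0.06. ATP5IF1, the inhibitor of ATP synthase hydrolysis, rose by 0.40 ± 0.08 (adjusted p = 4.37e-05), by 0.38 in SW480 and by 0.42 in SW620, and was higher on 12 of 12 arrays.

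NDUFA8, an accessory subunit of complex I, moved in opposite directions in the 2 lines with MAPK3 knockdown. In SW480 its controls ran from 9.87 over 10.96 to 11.15 and the MAPK3 arrays from 8.77 over 10.53 to 10.64, a fall of 0.56 (adjusted p = 0.00111). In SW620 the controls ran from 9.71 over 10.40 to 10.62 and the MAPK3 arrays from 10.48 over 10.95 to 11.06, a rise of 0.58 (adjusted p = 0.000199) with 6 of 6 above the controls of their series. The line difference was 1.14 ± 0.18 (adjusted p = 2.44e-06). In SW480 NDUFA8 also fell with MAP2K1 knockdown, from 8.85 over 10.26 to 10.39 (-0.71, adjusted p = 3.92e-05), and with HRAS knockdown, from 9.67 over 10.22 to 10.45 (-0.56, adjusted p = 0.000343). The lowest SW480 arrays of MAPK3 and MAP2K1 were those of replicate 1, whose line indices stood apart from the other SW480 arrays. Without the 3 SW480 arrays of replicate 1 that stood apart the MAPK3 line difference was 0.93, still past the threshold, and on replicates 3 to 6 alone the SW480 differences were -0.44 for MAPK3 and -0.70 for MAP2K1.

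Other MAPK3 falls rested in part on 1 array. ATP5MC2, another gene for subunit c, ran from 11.40 over 11.83 to 11.96 in the SW620 controls and from 6.31 over 11.41 to 11.46 with the knockdown (-1.18, adjusted p = 0.000371). The array at 6.31 was replicate 2, with a GAPDH difference of 2.95, where the difference from its controls was -5.18 against -0.44 on replicates 3 to 6. The line difference for ATP5MC2 was -1.20 (adjusted p = 0.02), and without replicate 2 it was -0.52 (adjusted p = 0.0549), and without replicate 3 -1.33 (adjusted p = 0.051). NDUFA10 on the same array was at 6.55, and its MAPK3 line difference of -0.61 (adjusted p = 0.0269) was -0.25 without the arrays of high GAPDH difference and did not pass. UQCRC1 fell by 0.47 over both lines, and by 0.78 in SW620, where replicate 2 was at 8.19. NDUFS7 fell by 0.43. Without the arrays of high GAPDH difference the changes over both lines were -0.34 for NDUFA10, -0.19 for UQCRC1 and -0.24 for NDUFS7, each still past the threshold.

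In MAP2K1 knockdown the named falls over both lines were NDUFA8 (-0.40, adjusted p = 0.000726), the complex I subunit NDUFB4 (-0.25) and the complex III subunit UQCR10 (-0.21). In MAP2K2 knockdown they were COX7A2L (-0.29), NDUFB5 (-0.28) and COX4I1 (-0.10). NDUFB4 did not pass without replicate 5 or 6, NDUFB5 not without replicate 1, 3, 4 or 5, and COX4I1 not without replicate 3, 4, 5 or 6. Of the MAP2K1 rises, ATP5IF1 (0.24) did not pass without replicate 2, 3 or 6, and NDUFS6 (0.28) not without replicate 2, 3, 4, 5 or 6.

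Tests of the difference between lines gave, in the direction higher and lower in SW620, 11 and 1 members for CDK5 (all genes, 6.5% and 9.06%), 10 and 1 for HRAS (10.2% and 8.69%), 13 and 0 for MAP2K1 (5.64% and 5.9%; 1 lower at an unadjusted p under 0.05), 3 and 0 for MAP2K2 (4.53% and 5.91%; 4 lower), 8 and 5 for MAPK3 (8.17% and 8.83%) and 21 and 1 for NGFR (10.5% and 13.3%). NDUFB10, an accessory subunit of complex I, differed by 0.92 for CDK5, and NDUFB3, another, by 0.71 for HRAS. The NDUFB10 difference did not pass without replicate 3, 4, 5 or 6 and that of NDUFB3 not without the SW480 HRAS arrays of replicates 3 and 4. COX7A1, the muscle form of subunit VIIa and a dim gene here, differed by 0.41 for MAP2K2, and not without replicate 3, 4 or 5.

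COX7C, a small subunit of complex IV, was the one member that separated the 2 kinds of vector control, a comparison in which 0.086% of all genes were called in either direction. In SW480 it ran from 11.33 over 11.54 to 11.55 with empty vector and from 9.45 over 10.94 to 10.98 with the non-target hairpin, without overlap. In SW620 it ran from 11.59 over 12.04 to 12.09 and from 11.07 over 11.79 to 11.84. The non-target arrays were lower by 0.63 ± 0.08 (adjusted p = 1.58e-07), and the 3 probe sets of the gene gave -0.63 to -0.69. Non-transduced SW480 arrays stood at 11.45, 11.48 and 11.78, near the empty vector. The COX7C rises with CDK5 (0.31), MAP2K1 (0.37), MAP2K2 (0.31), MAPK3 (0.31) and NGFR (0.24) knockdown were measured against both kinds of control pooled. Against empty vector alone the change was 0.06 for MAP2K1 (adjusted p = 0.732), -0.01 for MAP2K2 and -0.08 for NGFR.

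Between all vector controls and the non-transduced arrays 2 members fell and 0 rose by the limma test (1 higher at an unadjusted p under 0.05), with 2.13% of all genes called in either direction. The non-transduced arrays of replicate 7 have a series term of their own in each line and add nothing to this fit. The comparison therefore rests on the non-transduced arrays of replicates 1 and 2. ND6 was lower in the controls by 1.33 ± 0.30 (adjusted p = 0.00789), the lowest value of all genes tested, and COX7C by 0.38 (adjusted p = 0.0466). In SW480 the non-transduced ND6 levels were 7.33, 8.99 and 9.05, inside or below the control range, so the difference depends on the term for label series: without it the value was -0.12 (adjusted p = 0.869). COX7C did not pass without replicate 2, 3, 4, 5 or 6.

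Between the vector controls of the 2 lines 18 members were higher and 30 lower in SW620, with 23.9% and 24.7% of all genes, and a member median of -0.07 beside -0.01. By complex, 7 were higher and 14 lower in complex I, 1 and 0 in complex II, 2 and 2 in complex III, 3 and 6 in complex IV and 5 and 8 in complex V. The members furthest down in SW620 were ND6 (-1.46 ± 0.22, adjusted p = 1.74e-08), NDUFV3 (-1.44 ± 0.09, adjusted p = 3.9e-25), NDUFB1 (-0.87), NDUFA2 (-0.77) and NDUFB3 (-0.76). NDUFB1, a small membrane subunit of complex I, ran from 10.98 over 12.02 to 12.26 in SW480 and from 10.31 over 11.23 to 11.38 in SW620, and NDUFB3 from 9.95 over 10.89 to 11.05 and from 9.24 over 10.17 to 10.34. The ranges overlap across series, since replicates 1 and 2 were dimmer in both lines. Furthest up were ATP5MC2 (1.45 ± 0.22), NDUFS4 (1.06), NDUFB8 (0.94), COX7C (0.73) and UQCRC2 (0.68). NDUFS4, a complex I subunit needed for its assembly and activity, ran from 7.94 over 8.96 to 9.15 in SW480 and from 8.90 over 10.08 to 10.19 in SW620. UQCRC2, a core subunit of complex III, ran from 9.34 over 10.10 to 10.21 and from 9.39 over 11.07 to 11.21. Its line difference was not alike in every series: it was 0.06 with replicates 1 and 2 only (limma adjusted p = 0.949) and 0.99 with replicates 3 to 6 only. A second probe set gave 0.06 for NDUFV3 and 0.06 for ATP5MC2.

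**Figure D4:**
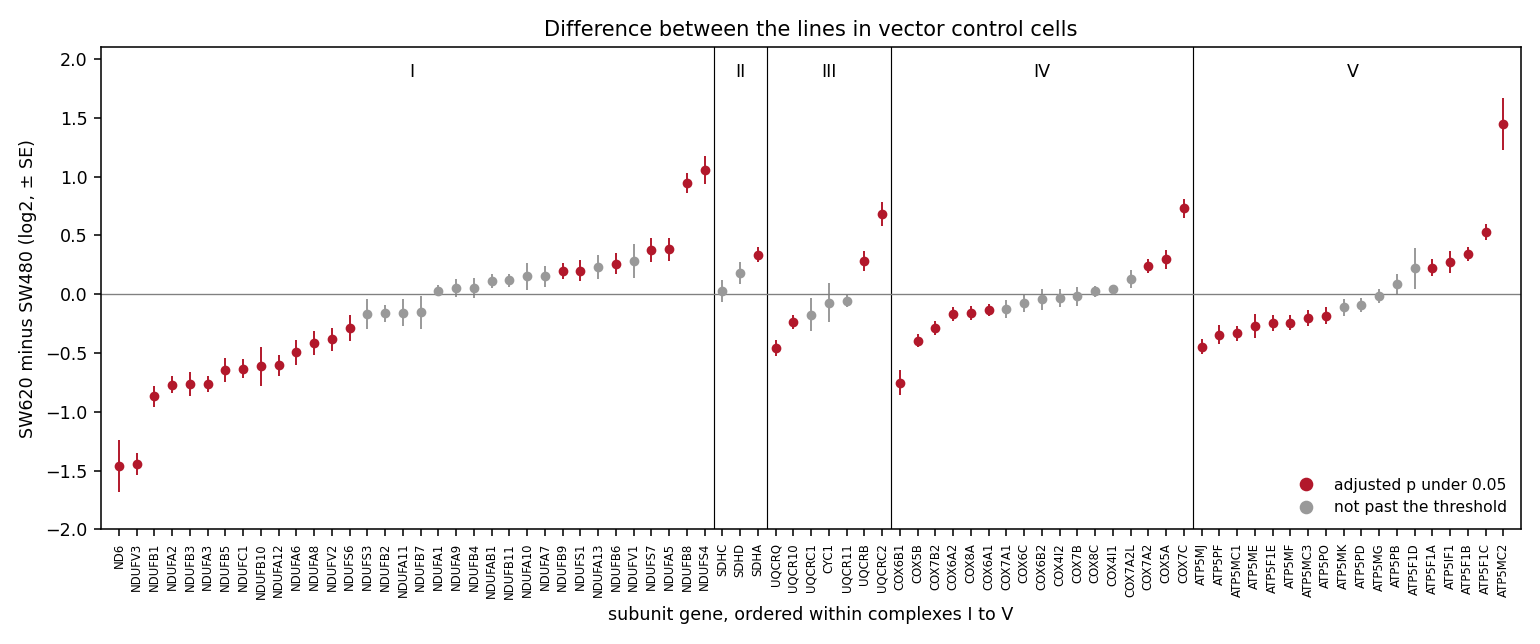
Difference between the lines in vector control cells (SW620 minus SW480, log2, with SE bars) for each subunit gene, ordered within complexes I to V, coloured by whether the adjusted p was under 0.05. ND6 and NDUFV3 lie lowest, at -1.46 and -1.44, and ATP5MC2 highest, at 1.45.

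The 3 complex II genes measured gave 1 call over both lines, that of SDHA with CDK5 knockdown (0.20, adjusted p = 0.00874). SDHA, the flavoprotein that oxidises succinate, ran from 9.81 over 10.03 to 10.12 in the SW480 controls and from 9.89 over 10.54 to 10.56 in SW620, higher there by 0.34 (adjusted p = 8.41e-06). It rose in SW620 with CDK5 (0.32, adjusted p = 0.00342) and NGFR knockdown (0.25) and fell in SW480 with HRAS knockdown (-0.21, adjusted p = 0.0456). SDHC, a membrane anchor, ran from 8.24 over 10.14 to 10.36 and from 8.17 over 10.24 to 10.51 and passed with no knockdown. SDHD, the other anchor, ran from 9.96 over 10.62 to 10.87 and from 10.11 over 10.83 to 11.08, and fell in SW480 with HRAS knockdown (-0.32, adjusted p = 0.04).

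Several complex IV subunits have paralogues of restricted tissue expression. Of the ubiquitous forms COX4I1 fell with HRAS knockdown by 0.09 and with MAP2K2 and MAPK3 knockdown by 0.10 each. With HRAS and MAP2K2 knockdown another COX4I1 probe set was called in the opposite direction. COX5A and COX5B fell with HRAS knockdown by 0.20 and 0.19, and COX6A1 with HRAS knockdown by 0.12. COX6B1 rose in SW620 with MAP2K2 knockdown (0.36), and COX7A2 passed with no knockdown. Of the restricted forms COX4I2 fell in SW480 with NGFR knockdown (-0.30, adjusted p = 0.012). COX6B2, the testis form, fell with NGFR knockdown over both lines (-0.22) and in SW620 with HRAS knockdown (-0.32). COX6A2, COX7B2 and COX8C passed with no knockdown within a line or over both.

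Between the lines COX6B1 (-0.75), COX5B (-0.40), COX7B2 (-0.29), COX6A2 (-0.17) and COX6A1 (-0.13) were lower in SW620, and COX5A (0.30) and COX7A2 (0.24) higher. COXFA4, formerly NDUFA4 and now placed in complex IV, is no member by its present symbol; it was lower in SW620 by 0.60 and rose there by 0.30 with NGFR knockdown. Its paralogue COXFA4L2 was higher in SW620 by 0.38 and fell there with CDK5 (-0.37), HRAS (-0.35) and NGFR knockdown (-0.38). Of the genes for subunit c, ATP5MC3 fell in SW480 with HRAS knockdown (-0.50, adjusted p = 1e-06), with a line difference of 0.60, and rose in SW620 by 0.30 with CDK5, 0.26 with MAP2K1 and 0.29 with MAP2K2 knockdown. NDUFAB1, the mitochondrial acyl carrier protein that is also a complex I subunit, rose by 0.13 with NGFR knockdown over both lines and by 0.20 in SW620 with NGFR and with MAP2K1 knockdown.

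The label series separated the members by more than any knockdown did, by their medians. From replicate 1 to replicates 3 to 6, 61 members were higher and 10 lower (all genes, 44% and 43.3%), with a member median of 0.38 beside 0.00, and from replicate 2, 67 and 6 (49.4% and 39%), with a median of 0.55 beside 0.09. Complex I moved by medians of 0.51 and 0.69, complex V by 0.42 and 0.57, complex IV by 0.14 and 0.27 and complex III by 0.16 and 0.22. Complex II had mean levels in the SW480 vector controls of 9.82 on replicate 1, 9.37 on replicate 2 and 10.33 on replicates 3 to 6. In SW620 they were 9.71, 9.43 and 10.61. NDUFB7, an accessory subunit of complex I, was higher by 1.80 and 2.67, NDUFA5 by 1.56 and 1.96, and SDHC by 1.08 and 1.58. UQCRC1 was lower by 1.41 and 1.17, COX6B2 by 1.04 and 0.90, and ATP5MF by 0.52 and 0.60. Against replicate 1, 13 of 41 called members with several probe sets had a probe set called the other way. Against replicate 2 it was 15 of 42, SDHC among them. The arrays of replicates 3 to 6 also had a wider spread of levels, with a 90th percentile of 8.95 at the median array against 8.49 for replicate 1 and 8.32 for replicate 2. After the arrays were quantile normalised again the member medians were 0.11 and 0.17, with 41 higher and 17 lower against replicate 1 and 50 and 15 against replicate 2.

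**Figure D5:**
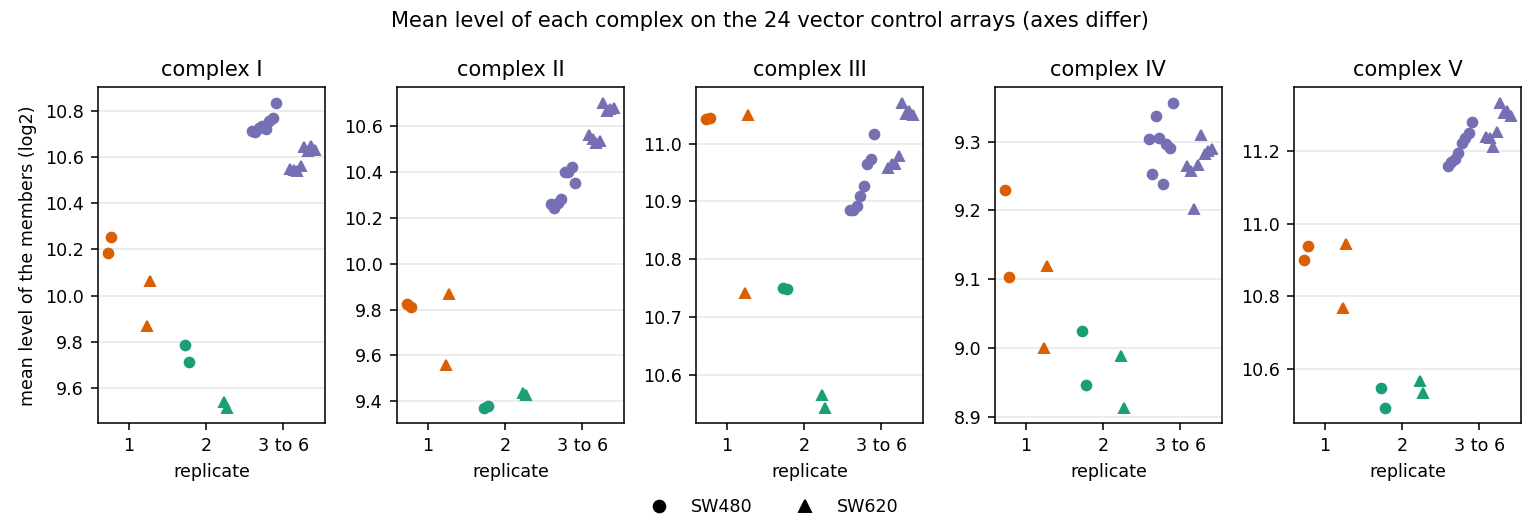
Mean level (log2, vertical axis) of the members of each complex on the 24 vector control arrays, by replicate (horizontal axis), circles for SW480 and triangles for SW620; the vertical axes differ between panels. Complexes I, II and V are highest in replicates 3 to 6, while complex III overlaps between replicate 1 and replicates 3 to 6.

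Other genes of the pathway were read from 4 lists: 47 assembly factors, 11 genes of the citric acid cycle, which supplies the electrons, 16 electron carriers and coupling proteins (ATP5IF1 among them) and 18 genes of mitochondrial transcription and biogenesis. With HRAS knockdown over both lines 5 citric acid cycle genes fell and 1 rose, with a median of -0.13, and 4 carrier and coupling genes fell and 1 rose, with a median of -0.08. The assembly factors gave 12 rises and 12 falls (0.03) and the biogenesis genes 5 and 3 (0.06). The all-gene shares were those above, 15.4% higher and 20.6% lower. With CDK5 knockdown the rises and falls in the same list order were 8 and 4, 0 and 0, 4 and 2, and 3 and 3. With MAP2K1 they were 5 and 4, 1 and 0, 5 and 1, and 2 and 1, and with MAP2K2 9 and 5, 1 and 0, 3 and 2, and 5 and 2. MAPK3 gave 9 and 7, 0 and 2, 8 and 1, and 5 and 3, and NGFR gave 6 and 7, 0 and 3, 3 and 5, and 2 and 3. Between the lines, 13 assembly factors were higher and 15 lower in SW620, and 10 carrier and coupling genes were higher and 4 lower.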

How the data were processed

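The data are HG-U133 Plus 2.0 arrays, 1 column each. The deposited values are log2 intensities per probe set; the submitters' processing notes name RMA, with no version. Further steps are not given in the sources used here.

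Of 54675 probe sets, 41097 name 1 gene, 1801 several and 11777 none in the platform annotation; 41043 symbols were updated through RefSeq and 54 kept. The probe set with the highest mean stood for each of 19775 genes, of which 10523 had several. In limma 3.58.1 under R 4.3.3, all groups were fitted together with the label series of each line as a term (lmFit, eBayes with trend and robust, 77 residual degrees of freedom). P-values were adjusted by Benjamini-Hochberg over all genes and called below 0.05. The functions were tested on simulated data. The number of arrays limits the precision.

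The members and gene lists were chosen with earlier results of these data known. Named by rule were, per knockdown, the 3 largest rises and falls of the same sign in both lines, per line difference the 2 largest each way, between lines the 5, and between controls or series the 3 largest each way, and in any case ND6, the SDH genes, NDUFAB1 and the complex IV and subunit c paralogues; other genes were named after their values were seen. Alternatives numbered 18, and 3 were added after seeing the data.

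Same-numbered arrays were checked for pairing: over 112 pairs in each line the median correlation of deviations was -0.10 in SW480 and -0.09 in SW620, so the numbers were not taken to pair arrays. Non-transduced arrays labelled both replicate 7 and 4 were read as 7, from the titles. Promoters came from RefSeq, GRCh38.p14, and figures from matplotlib 3.10.9.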

Additional observations from a re-analysis of the deposited data

Results flagged for a closer look

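Mean levels of each complex and ND6 were checked in the 16 groups of 5 or 6 arrays for 1 array standing far from the others. Of 96 such groups and measures 12 had one. Chance gives about 1 in 20 in groups drawn from 1 level, but each of these groups mixes label series of different levels, so that rate does not apply, and 10 of the 12 lay on replicate 2. CDK5 knockdown in SW620 gave 5 of them, all on replicate 2: complex I at 10.04 (nearest other array 10.68), complex II at 9.90 (10.60), complex IV at 9.04 (9.23), complex V at 10.98 (11.33) and ND6 at 8.41 (9.08). That group has no replicate 1, so replicate 2 is its only array outside replicates 3 to 6; the vector controls of replicate 2 in SW620 had complex I at 9.51 to 9.54, below it. Complex III was low on CDK5 replicate 2 in SW480 (10.78, nearest 10.97), MAPK3 replicate 2 in SW620 (10.29, nearest 10.90), NGFR replicate 1 in SW620 (10.70, nearest 10.96) and non-target replicate 2 in SW620 (10.54, nearest 11.05). Complex IV was low on empty vector replicate 2 in SW480 (9.03, nearest 9.23) and complex II on MAP2K1 replicate 1 in SW620 (9.70, nearest 10.24). ND6 was high on NGFR replicate 2 in SW480 (8.87, nearest 8.61).

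Changes that differed between SW480 and SW620 by the limma interaction numbered 12 members for CDK5, 11 for HRAS, 13 for MAP2K1, 3 for MAP2K2, 13 for MAPK3 and 22 for NGFR knockdown. Larger in SW620 were the changes of ND6 with NGFR (2.53), HRAS (1.71), MAPK3 (1.36) and MAP2K1 (1.15), of NDUFA8 with MAPK3 (1.14), of NDUFB10 (0.92) and NDUFA6 (0.64) with CDK5, of COX7B with NGFR (0.81), of NDUFA2 with MAP2K2 (0.73) and MAP2K1 (0.71), of NDUFB3 with HRAS (0.71) and of COX7A1 with MAP2K2 (0.41). Lower in SW620 were those of COX7A2L with HRAS (-0.69), NGFR (-0.65) and CDK5 (-0.53), and of ATP5MC2 (-1.20) and NDUFA10 (-0.61) with MAPK3.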

How the results depend on the processing

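Of 204 counts of members over settings other than the main one, 119 stayed within 1.5 times the main count and 85 did not. The cause was not tested. All-gene shares are not given beside the counts of this section, so they do not show whether members moved apart from all genes. Orders below are CDK5, HRAS, MAP2K1, MAP2K2, MAPK3 and NGFR. Without the term for label series the knockdown counts were 1, 5, 1, 3, 3 and 3, the line difference counts 0, 1, 0, 0, 1 and 6, the count between lines 24 and that of vector controls against non-transduced arrays 0. With replicates averaged in pairs they were 4, 7, 2, 3, 9 and 10, then 0, 2, 0, 1, 2 and 5, then 31 and 0. With replicates 3 to 6 only they were 35, 59, 32, 38, 41 and 38, then 39, 46, 55, 48, 41 and 55, and 23 between the vector controls. With replicates 1 and 2 only they were 0, 0, 0, 0, 1 and 1, with 0 for each line difference, 11 between lines and 0 for the other control comparisons. The limma counts of 0 stood beside 0 to 13 members at an unadjusted p under 0.05. Without the arrays of high GAPDH difference CDK5, HRAS and MAP2K2 gave 22, 38 and 29, and their line differences 25, 19 and 15. Without all 6 arrays that stood apart, CDK5, HRAS, MAP2K1 and MAP2K2 gave 24, 40, 15 and 31, the line differences of CDK5, HRAS, MAP2K2 and NGFR 27, 26, 15 and 38, and the non-transduced comparison 4. Against the non-target hairpin alone MAP2K1 and MAP2K2 gave 4 and 7, and the line differences of CDK5, HRAS, MAP2K1 and MAPK3 2, 6, 5 and 7. Against empty vector alone the MAP2K1 and MAPK3 line differences gave 8 and 8. The HRAS line difference gave 5 without the SW480 HRAS arrays of replicates 3 and 4 and 19 with probe sets averaged. The MAP2K2 line difference gave 7 after a new quantile normalisation, and without the 3 SW480 arrays that stood apart by line index it gave 5 and that of MAPK3 7. With a replicate block the non-transduced comparison gave 1, and the other counts stayed within 1.5 times, at 9 for CDK5, 25 for HRAS, 8 for MAP2K1, 10 for MAP2K2, 13 for MAPK3 and 16 for NGFR. Leaving out each replicate in turn gave 7 to 23, 13 to 48, 5 to 21, 5 to 17, 10 to 26 and 13 to 27 for the knockdowns, and 1 to 20, 5 to 21, 1 to 28, 1 to 22, 7 to 22 and 15 to 35 for the line differences. It gave 40 to 54 between lines, 1 to 1 between vector controls, 1 to 10 against non-transduced arrays, and 70 to 71 and 73 to 73 between label series. Of named values, 3 reversed: COX4I1 with MAP2K2 knockdown to 0.028 when its probe sets were averaged, and COX7C to -0.0058 with MAP2K2 and -0.075 with NGFR knockdown against empty vector alone. The settings without the 6 arrays, without the SW480 HRAS arrays and without replicate 7 were added after seeing the data. Dim genes, 6 of the 79, are limited by signal over background.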
